A study of Homo sapiens with 18 samples.

Results

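The ZNF genes numbered 1 to 399 encode zinc finger proteins, most of which bind DNA through tandem fingers that each fold around a zinc ion. Many carry a KRAB box, which recruits the corepressor TRIM28 and histone methyltransferases to the sites where the fingers bind, and a large share of such genes lies in clusters on chromosome 19. Others are activators, and some bind RNA or other proteins. In these arrays, 167 genes of this number range had a probe set with a single gene symbol, of 19775 genes in all. Each gene was represented by the probe set with the highest mean over all arrays, and 129 of the 167 were selected on their measured values, because the signal was at least 8.84 on the linear scale (3.14 on the log2 scale) on both arrays of untreated normoxic cells. The same choice of probe set and threshold kept 10844 genes over the whole array. The genes nearest to the threshold were ZNF100 inside it, with a lower normoxic signal of 8.97, and ZNF41 outside it, with 8.69. Of the 38 genes left out, 7 were above the threshold on both arrays of some other condition. ZNF34, inside the threshold, was at the floor of its probe set on both N arrays. All 129 entered the tests, and transcript half-lives were not measured.

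The cells were MDA-MB-231, an established human breast cancer line without estrogen receptor. All 6 conditions shared a 16 hours incubation in medium without serum: normoxia (N) or hypoxia at 1% O2 (H), each with no drug, with 50 µM paclitaxel (tax), which stabilizes microtubules, or with 10 µM epirubicin (epi), an anthracycline that intercalates into DNA and poisons topoisomerase II. Gene expression was measured on Affymetrix arrays as GC-RMA signals, and 2 arrays of each condition were used. The comparisons address how each drug and hypoxia changed transcript abundance. Signals are relative to the RNA hybridized, so fewer cells and less RNA per cell cannot be told apart. Another 6 arrays, titled as replicate 3, carried a drug in the title that did not match the one in the source name, and they were left out of every comparison. When they were added by title, 97 ZNF genes were lower and 8 higher in H epi than in H. The shares of all probe sets in that fit are not given here, so these counts have no background. When the 6 arrays were added by source name, no ZNF gene passed the test in any comparison. The labels number the replicates without saying where they came from, and the study's methods call them biological. The p-values measure the spread between these arrays.

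Between 41.4% and 42.6% of the probe sets were above the threshold on an array. VIM, CD44, CAV1, MSN and AXL, markers of this mesenchymal-like line, were above it on 12 of 12 arrays, PGR and CDH1 on 0 of 12 and ESR1 on 1 of 12. GATA3, listed as low in this line, was present on 12 of 12 arrays. The median log2 signal of all tested probe sets was 6.73 to 7.17 on the epirubicin arrays and 7.36 to 7.46 on the others. The difference between the 3' and 5' control probe sets of ACTB was -0.31 to -0.21 log2 units on the epirubicin arrays and -0.04 to 0.32 on the others. For GAPDH the same difference was 0.42 to 0.48 on the epirubicin arrays and 0.39 to 0.49 on the others. The part of these differences in the results was not tested.

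Promoters were read for 116 of the 129 genes from RefSeq sequence (GRCh38.p14), as the 250 bases before the start that RefSeq's promoter table uses. For 91 of the 116 that start was also the outer end of the gene in the RefSeq gene table, and for the others it was a different position. These windows held a median of 17.5 CpG dinucleotides, against 11 in all 27305 promoters of the table. A CCAAT box (CCAAT, either strand) was found in 50.9% of the ZNF promoters and 33% of all promoters, a GC box (GGGCGG, either strand) in 62.1% and 42.3%, and a TATA box (TATAAA, either strand) in 1.7% and 11.1%. ACGTG, the core of the sequence that hypoxia-inducible factors bind, was found on either strand in 15.5% and 18.7%. Of the promoters of genes that fell with epirubicin in hypoxia (described in the next paragraphs), 16 of 81 held ACGTG, against 2 of the other 35. A CCAAT box was found in 50.6% and 51.4% of these sets and a GC box in 64.2% and 57.1%. For the TATA box the shares were 1.2% and 2.9%, and no test was made between the sets. A match describes letters in a window and not a bound site. The table does not hold ZNF155, ZNF16, ZNF182, ZNF211, ZNF250, ZNF251, ZNF253, ZNF30, ZNF34, ZNF394, ZNF395, ZNF7 or ZNF76. The promoters below belong to 2 genes that fell with epirubicin (ZNF264 and ZNF175), 2 that rose with paclitaxel (ZNF397 and ZNF222) and 1 that was higher in hypoxia under paclitaxel (ZNF84). These labels overlap and are not separate classes. In H epi against H, ZNF397 was also lower by at least 1.66-fold, and ZNF222 had a difference of -1.77. The ZNF84 signals were 7.96 and 7.85 in H and 6.23 and 5.65 in H epi. Capitals mark the CCAAT boxes, GC boxes and ACGTG matches.
ZNF264, chr19:57191250-57191499, plus strand: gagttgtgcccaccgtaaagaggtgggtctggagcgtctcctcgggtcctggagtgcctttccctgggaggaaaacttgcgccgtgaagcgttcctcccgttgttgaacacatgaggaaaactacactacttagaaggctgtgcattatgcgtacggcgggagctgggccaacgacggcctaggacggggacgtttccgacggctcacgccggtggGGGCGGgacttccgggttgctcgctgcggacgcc
ZNF175, chr19:51571033-51571282, plus strand: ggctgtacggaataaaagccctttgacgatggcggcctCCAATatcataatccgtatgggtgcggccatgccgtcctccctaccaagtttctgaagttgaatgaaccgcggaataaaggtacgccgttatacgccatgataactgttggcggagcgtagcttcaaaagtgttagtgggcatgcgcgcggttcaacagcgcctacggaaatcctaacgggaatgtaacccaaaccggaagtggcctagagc
ZNF397, chr18:35240784-35241033, plus strand: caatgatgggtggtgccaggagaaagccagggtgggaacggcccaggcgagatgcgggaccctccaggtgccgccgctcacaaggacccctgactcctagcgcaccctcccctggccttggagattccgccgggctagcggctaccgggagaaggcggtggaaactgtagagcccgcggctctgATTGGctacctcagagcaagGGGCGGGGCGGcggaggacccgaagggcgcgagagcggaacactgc
ZNF222, chr19:44025129-44025378, plus strand: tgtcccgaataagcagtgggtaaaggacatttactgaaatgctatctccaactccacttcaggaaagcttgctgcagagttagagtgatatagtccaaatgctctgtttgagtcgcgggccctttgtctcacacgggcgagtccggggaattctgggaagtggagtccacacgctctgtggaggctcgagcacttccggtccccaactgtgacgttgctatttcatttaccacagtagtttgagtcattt
ZNF84, chr12:133037259-133037508, plus strand: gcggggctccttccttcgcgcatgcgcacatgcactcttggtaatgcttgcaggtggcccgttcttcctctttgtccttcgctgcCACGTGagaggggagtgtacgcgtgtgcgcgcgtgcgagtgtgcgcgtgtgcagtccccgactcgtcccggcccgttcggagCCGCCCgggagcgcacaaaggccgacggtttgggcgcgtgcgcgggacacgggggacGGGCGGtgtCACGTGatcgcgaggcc
None of the 5 windows held TATAAA, and the ZNF222 window held none of the 4 motifs. The ZNF84 window held CACGTG at 2 places, each of which reads ACGTG on both strands.

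Epirubicin lowered most of the ZNF genes. In H epi against H, 91 of the 129 genes (70.5%) were lower and 6 (4.7%) higher by limma at an adjusted p under 0.05, where 32.5% of all 24151 probe sets tested were lower and 30.9% higher. Of the 10844 genes chosen in the same way, 36.9% were lower and 29.3% higher. The median difference of the ZNF genes was -1.53 on the log2 scale (quartiles -2.8 and -0.45), against -0.04 for the genes chosen in the same way. By the fitted difference, 82 of the 91 fell 2-fold or more, 48 fell 4-fold or more and 10 fell 16-fold or more. The 32 genes that did not pass had differences from -0.84 to 0.89. Median centring of the arrays, which moved the median of all probe sets up by 0.54, gave 80 lower and 20 higher ZNF genes, with 23.2% of all probe sets lower and 53% higher, and quantile normalization gave 81 and 14.

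The per-array medians show the same pattern. The 129 genes had a median log2 signal of 6.30 and 6.33 on the N arrays, 6.11 and 6.27 on the H arrays, 6.74 and 6.67 on the N tax arrays, and 6.93 and 6.58 on the H tax arrays. The medians were 4.4 and 5.01 on the N epi arrays and 4.29 and 4.25 on the H epi arrays, below those of all 8 other arrays. On both H epi arrays 23 genes were under the presence threshold, and on both N epi arrays 11 were. With the 23 set at their lower bound, the median difference between H epi and H was -1.46.

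**Figure D1:**
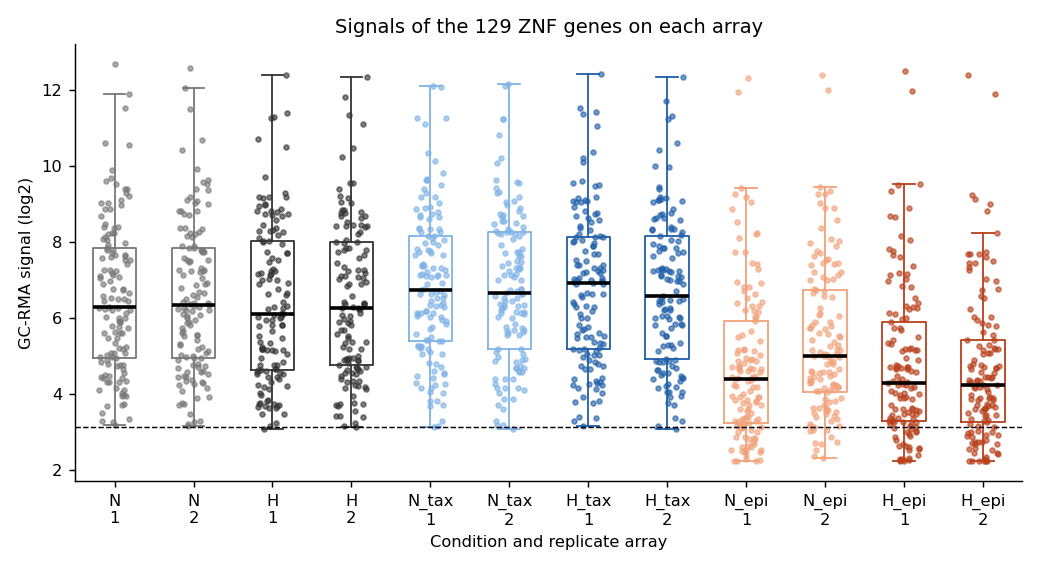
Log2 GC-RMA signals of the 129 ZNF genes on each of the 12 arrays, by condition and replicate. Points are genes, boxes span the quartiles with the median as a thick line, whiskers reach the farthest gene within 1.5 box heights, and the dashed line is the presence threshold. The medians of the 4 epirubicin arrays lie between 4.25 and 5.01 and those of the other 8 between 6.11 and 6.93.

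The ZNF genes had lower signals than the genes chosen in the same way, so the same shares were taken over a common range. Between the quartiles of the ZNF signals in N (4.87 to 7.85), 3011 genes chosen in the same way were lower in H epi than in H in 41.8% of cases, with a median of -0.3. The 65 ZNF genes of that range were lower in 78.5% of cases, with a median of -1.87. Split by signal in N into 3 groups of 43 genes, 21 of the lowest group, 35 of the middle group and 35 of the highest group were lower.

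**Figure D2:**
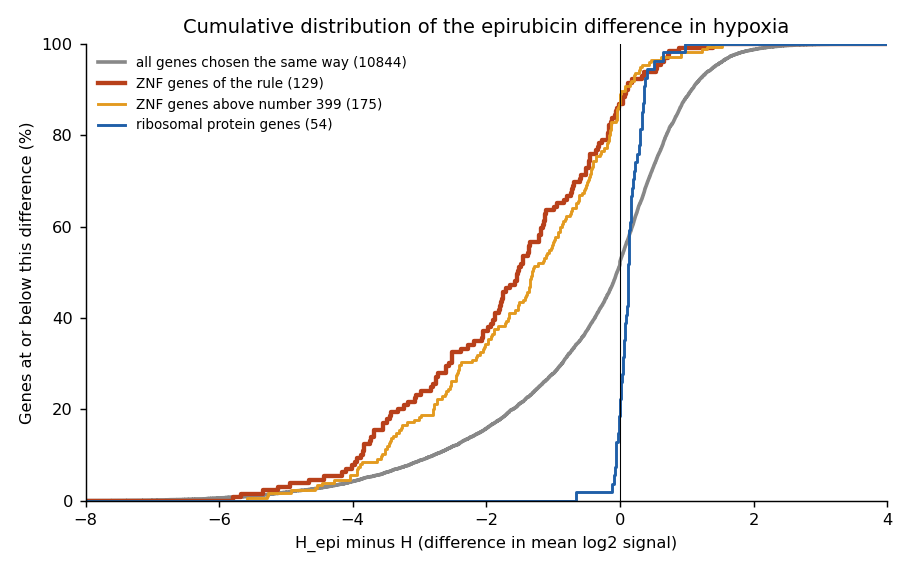
Cumulative share of genes (%) by the difference H epi minus H in mean log2 signal, for the 129 ZNF genes, the 175 ZNF genes numbered above 399, 54 ribosomal protein genes and the 10844 genes chosen in the same way. The 2 ZNF curves lie to the left, with medians of -1.53 and -1.31, and the ribosomal protein genes lie close to 0 with a median of 0.12.

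The deepest falls included several genes whose signal dropped to the presence threshold. ZNF264, a KRAB zinc finger gene, had log2 signals of 8.73 and 8.67 on the H arrays and 3.08 and 2.74 on the H epi arrays. Both H epi values were under the threshold, so the fall was at least 47.1-fold (limma, adjusted p = 0.000278). In the other conditions without epirubicin it lay at 7.96 and 8.34 (N), 8.72 and 8.55 (N tax) and 9.15 and 8.58 (H tax). The N epi arrays gave 2.51 and 5.52. The 2 N epi arrays thus differed far more than the 2 arrays of any other condition. The second ZNF264 probe set fell by 4.91 in H epi against H.

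ZNF217, an oncogene amplified in breast cancers, had log2 signals of 8.75 and 8.70 on the H arrays and 2.63 and 3.46 on the H epi arrays. The difference was -5.68 ± 1.25 (SE, adjusted p = 0.00401 by limma), and the arrays did not overlap. This SE is pooled over all 6 conditions. The standard deviation was 3.51 between the N epi arrays, against 0.04 in H and 0.58 in H epi. On the N epi arrays ZNF217 was 2.47 and 7.43, against 8.66 and 8.40 in N tax. ZNF292, a large zinc finger factor, had signals of 8.99 and 8.77 in H and 3.44 and 3.64 in H epi, a difference of -5.34 ± 0.29 (limma, adjusted p = 6.34e-06). Its signals in H and H tax were higher (8.34 to 8.99) than those in N and N tax (6.90 to 7.46). In H tax against N tax the ZNF292 difference of 1.21 did not pass (limma, adjusted p = 0.113). It passed at 1.05 with the arrays titled as replicate 3 added by title (limma, adjusted p = 0.0146). H against N was not tested.

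ZNF398, also known as ZER6, fell by 5.11 from 8.79 and 8.80 to 3.64 and 3.71. Of its other 2 probe sets, 1 fell by 4.07 and 1 did not pass (difference -0.54, adjusted p = 0.158). ZNF318 fell by 4.94 from 8.04 and 7.96 to 3.88 and 2.23, and its second probe set had a smaller difference of -1.64. ZNF175, also known as OTK18, had 7.0 and 7.11 in H and 3.57 on both H epi arrays, a difference of -3.49 ± 0.11 (limma, adjusted p = 8.2e-07). N epi replicate 1 had the same 3.57, which may be the floor of this probe set. The fall may then be understated, and equal values make the SE smaller. The 4 epirubicin signals of ZNF175 (3.57 to 3.79) all lay below its 8 other signals (6.46 to 7.11). In all 3 genes both H epi arrays lay below both H arrays.

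**Figure D3:**
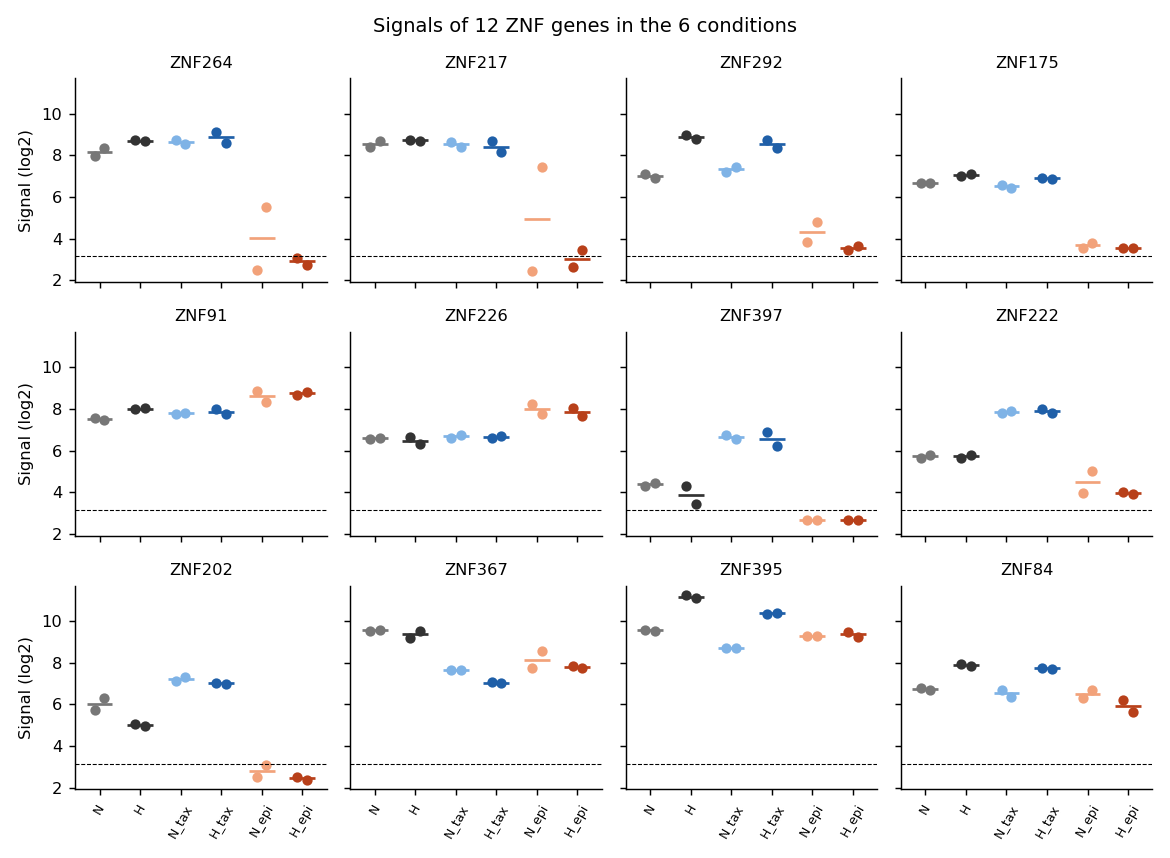
Log2 GC-RMA signals of 12 ZNF genes in the 6 conditions. Points are arrays, short lines are means of 2 arrays, and the dashed line is the presence threshold. ZNF264, ZNF217, ZNF292 and ZNF175 are low under epirubicin, ZNF91 and ZNF226 are high there, and ZNF397, ZNF222 and ZNF202 are high under paclitaxel.

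Proteins could not be classed here by their domains, so members of known role were taken one by one in H epi against H. ZNF143, an activator that binds promoters and takes part in chromatin loops, fell by 3.05 (adjusted p = 0.000353). ZNF148, which binds GC-rich promoters, fell by 3.32 (adjusted p = 8.82e-05), and ZNF281, linked to stem cell and mesenchymal programs, fell by 4.66 (adjusted p = 0.000931). ZNF24, described as a repressor of VEGFA, fell by 4.01 (adjusted p = 7.45e-05), and its other tested probe sets fell by 0.94 and 3.24.

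ZNF274, which recruits the methyltransferase SETDB1 to zinc finger genes, fell by 4.43 in H epi against H (adjusted p = 0.000383), from 10.71 and 10.46 to 6.27 and 6.03. The second ZNF274 probe set had a smaller difference of -1.5. Of other genes known to carry a KRAB box, ZNF133 fell by 3.69, ZNF267 by at least 8.56-fold, ZNF202 by at least 3.63-fold, ZNF93 by 2.6, ZNF350 (ZBRK1, a partner of BRCA1) by 1.37 and ZNF224 by 1.21, all with an adjusted p under 0.05. The second ZNF202 probe set did not pass (difference -0.23, adjusted p = 0.455). ZNF10, the source of the KRAB domain used in many synthetic repressors, did not pass (difference -0.27, adjusted p = 0.319), and its H epi signals of 3.04 and 3.04 were under the threshold. Its H signals of 3.08 and 3.55 were already near the threshold, so a fall had little room to show. In N epi against N tax ZNF10 was lower by at least 1.89-fold (limma, adjusted p = 0.00417).

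ZNF330, a nucleolar protein gene, fell by 1.75 in the same comparison, and its second probe set was higher by 0.78. ZNF346, which binds double-stranded RNA, fell by 1.14 and ZNF335 by 1.11. ZNF277, a Polycomb partner, fell by 1.46, and of its other tested probe sets 1 fell by 1.04 and 1 was higher by 1.84 (adjusted p = 0.0191). ZNF207, a BUB3-binding spindle protein gene, had a difference of 0.33 (adjusted p = 0.0978), which passed at 0.37 with the arrays titled as replicate 3 added by title (adjusted p = 0.00678). Of its other tested probe sets, 4 fell by 1.29 to 2.6, 2 were higher by 0.49 and 0.83, and 1 did not pass. ZNF326, a splicing-related gene, had a difference of -0.04 (adjusted p = 0.826).

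The 6 genes higher in H epi than in H were ZNF226, ZNF219, ZNF91, ZNF213, ZNF358 and ZNF268. ZNF226 had log2 signals of 6.66 and 6.30 in H and 8.05 and 7.68 in H epi, a difference of 1.39 ± 0.2 (limma, adjusted p = 0.000378). Its 4 epirubicin signals were above all 8 others. The second ZNF226 probe set went the other way, with a difference of -3.9 (adjusted p = 2.55e-06). ZNF91, a repressor of SVA retrotransposons, had 8.01 and 8.04 in H and 8.69 and 8.81 in H epi, a difference of 0.72 (adjusted p = 0.00505), while its other tested probe set fell by 1.96. ZNF219, a partner of SOX9, was higher by 0.73, ZNF213 by 0.66, ZNF358 by 0.62 and ZNF268 by 0.54. These calls ended in 5 of the alternatives tried for ZNF219 and in 3 each for ZNF213 and ZNF268, and by title the difference of ZNF213 was 0.24 (adjusted p = 0.34). The second probe sets of ZNF358 and ZNF268 were higher too, by 0.91 and 0.45.

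Probe sets of one gene could therefore disagree. Of the 129 genes, 53 had a second probe set above the threshold on both N arrays, and 45 of those 53 passed the test with the first in H epi against H. In 32 of the 45 the second passed in the same direction and in 5 in the opposite direction. Transcript ends and cross-hybridization between related ZNF genes were not resolved in these values. Of the 129 probe sets, 16 carry the suffix for possible cross-hybridization. Those of ZNF93, ZNF213, ZNF222, ZNF230, ZNF358 and ZNF367 are among the 16. Without those 16, 81 of 113 genes were lower and 4 higher.

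The direction was the same in normoxia between the 2 drugs. In N epi against N tax, a comparison that shares no array with H epi against H, 95 of the 129 genes (73.6%) were lower and 5 (3.9%) higher, where 31.7% of all probe sets were lower and 30.3% higher. Median centring gave 91 lower and 10 higher. The median difference was -1.93, against 0 for the genes chosen in the same way. Of the genes lower here, 84 were also lower in H epi against H, 11 were not, and 7 were lower only in the hypoxic comparison. Of all probe sets, 32.5% were lower in the hypoxic comparison and 31.7% in this one. Their overlap is not given here, so the overlap of the ZNF genes has no background. ZNF264 was lower in N epi than in N tax by 4.62 ± 0.77 (limma, adjusted p = 0.00106), ZNF398 by 4.56, ZNF394 by 4.11 and ZNF281 by 4.1. These are differences between 2 drugs. Against N, described without a test, the median of the ZNF genes was 0.31 for N tax and -1.41 for N epi. The other tested probe set of ZNF394 did not pass (difference -0.13, adjusted p = 0.816).

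ZNF202, a repressor of lipid metabolism genes, had log2 signals of 7.14 and 7.31 in N tax and 2.52 and 3.07 in N epi, at least a 16.9-fold difference (limma, adjusted p = 7.76e-06). Its signal in N lay between the drugs, at 5.75 and 6.33. The genes higher in N epi than in N tax were ZNF226 (1.29), ZNF219 (1.05), ZNF91 (0.82), ZNF358 (0.74) and ZNF395 (0.57). ZNF226 and ZNF91 again had second probe sets that were lower, by 4.2 and 1.54.

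Other gene groups were taken as a reference for H epi against H. Of 175 ZNF genes numbered above 399, 117 were lower and 6 higher (median -1.31), and of 58 genes of other families with C2H2 fingers, 45 were lower and 1 higher (median -1.97). Of 54 ribosomal protein genes, 12 were higher and 1 lower (median 0.12). Among 16 genes with known short-lived messages, 12 were lower and 1 higher (median -4.45). MYC fell by 6.57, MCL1 by 6.39 and JUN by 6.39, and CCND1 was higher by 1.68.

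The partners through which KRAB proteins act did not move as 1 group. Of 19 corepressor genes, 10 were lower and 4 higher in H epi against H (median -0.29). TRIM28, the central KRAB partner, had a difference of 0.27 (adjusted p = 0.176). SETDB1, which methylates histone H3, fell by 2.15, its cofactor ATF7IP by 1.21, and CBX5, a heterochromatin protein gene, by 2.41, while HDAC2 was higher by 1.13.

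On chromosome 19, 38 of 49 ZNF genes were lower in H epi against H (median -1.87), and elsewhere 53 of 80 (median -1.18). No test was made between these groups. In 1 cluster of chromosome 19, 10 of the genes lie next to each other or with 1 other protein-coding gene between them. In the order ZNF45, ZNF155, ZNF230, ZNF222, ZNF284, ZNF224, ZNF225, ZNF234, ZNF226 and ZNF227, their differences were -2.51, -0.17, -1.49, -1.77, -0.7, -1.21, -0.44, -1.36, 1.39 and -3.84. ZNF155 (adjusted p = 0.39) and ZNF225 (adjusted p = 0.0987) did not pass, and neighbours ZNF226 and ZNF227 went in opposite directions.

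Paclitaxel gave smaller and fewer changes. In H tax against H, 19 of the 129 genes (14.7%) were higher and 7 (5.4%) lower, where 13% of all probe sets were higher and 17% lower. With 2 arrays of each condition in the fit, the share of higher genes was thus near that of all probe sets. The share of lower genes was below that of all probe sets. The median difference was 0.3, against -0.01 for the genes chosen in the same way, and 98 of the 129 differences were above 0. The count of higher genes moved in both directions when single arrays were left out. Each such fit left a condition with a single array. Where that was another condition, both H and both H tax arrays stayed, and the pooled spread behind the p-values changed. How the share of higher genes compares with that of all probe sets was not decided from these fits. With no presence filter, and so with 54613 probe sets in the adjustment, the count of higher genes was 8. The share of all probe sets in that fit is not given here, so this count has no background.

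ZNF397, a SCAN-domain gene, had log2 signals of 4.33 and 3.43 in H and 6.90 and 6.22 in H tax. The difference was 2.68 ± 0.29 (limma, adjusted p = 0.000444). It was 6.74 and 6.57 in N tax, 4.33 and 4.44 in N, and 2.69, under the threshold, on all 4 epirubicin arrays. The 3 treatments thus gave 3 levels that did not overlap.

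ZNF222, from the chromosome 19 cluster, had 5.65 and 5.81 in H and 8.02 and 7.84 in H tax, a difference of 2.19 ± 0.29 (limma, adjusted p = 0.00105). The only ZNF222 probe set carries the suffix for possible cross-hybridization, and so does the chosen one of ZNF230. ZNF230 and ZNF284, neighbours of ZNF222, had differences of 0.51 and 0.3 and did not pass. ZNF202 was higher by 2.01, from 5.06 and 4.95 to 7.03 and 6.99, and its other probe set by 1.49. ZNF343 was higher by 1.84 and ZNF195 by 1.69. Among genes with a known role, ZNF350 (0.85), ZNF10 (0.83), ZNF277 (0.81) and ZNF268 (0.62) were higher, but these calls ended in 11, 6, 9 and 5 of the alternatives tried. The ZNF195 call ended in 4.

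ZNF367, a gene whose expression follows the cell cycle, had the largest fall among the 129 genes in H tax against H. The only ZNF367 probe set carries the suffix for possible cross-hybridization. Its log2 signals were 9.18 and 9.54 in H and 7.06 and 7.03 in H tax, a difference of -2.32 ± 0.24 (limma, adjusted p = 0.000347). It was 9.52 and 9.59 in N and 7.65 and 7.64 in N tax. Under epirubicin it lay at 7.74 and 8.57 in normoxia and 7.82 and 7.74 in hypoxia, below the untreated arrays as well. ZNF341, a regulator of STAT3 transcription, fell by 1.09, ZNF180 by 0.95 (a call that ended in 4 alternatives), ZNF248 by 0.84, ZNF395 by 0.8, ZNF347 by 0.68 and ZNF12 by 0.39.

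**Figure D4:**
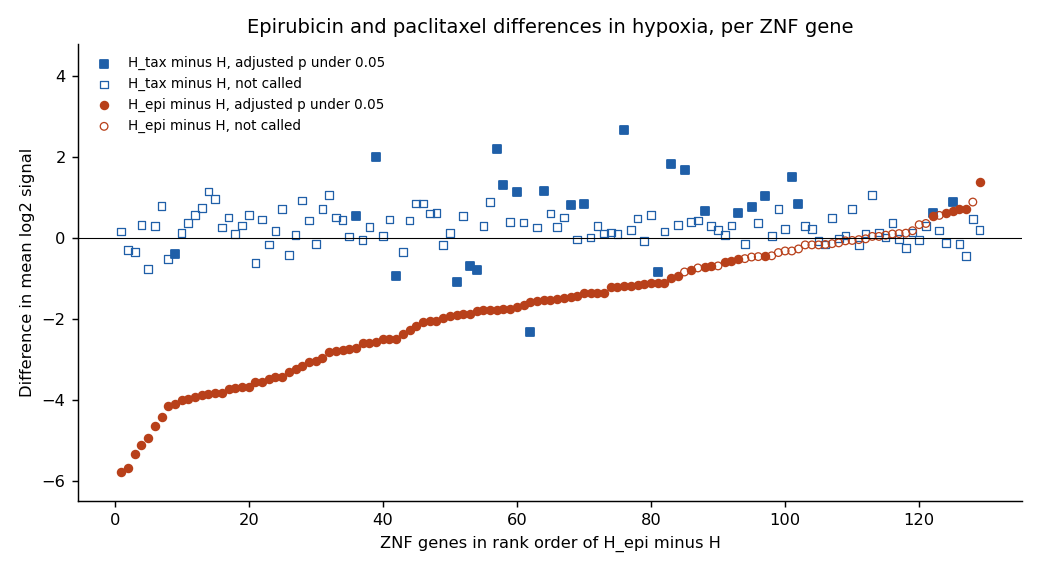
Differences in mean log2 signal of H epi minus H (circles) and H tax minus H (squares) for the 129 ZNF genes, in rank order of the first. Filled symbols have a limma adjusted p under 0.05. The epirubicin differences run from -5.79 to 1.39 and the paclitaxel differences from -2.32 to 2.68. Both are taken against the same 2 H arrays.

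Against N, the differences were described without a test, because the N arrays chose the genes. The median difference was -0.06 for H (52 genes above 0 and 77 below), 0.31 for N tax (98 above and 31 below) and -1.41 for N epi (17 above, 111 below and 1 equal). For the genes chosen in the same way the medians were -0.04, -0.03 and -0.02.

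Few of the genes, and few of all probe sets, passed the test between hypoxia and normoxia under either drug. With 2 arrays of each condition, a gene that did not pass may still have changed. In H tax against N tax, ZNF395 and ZNF84 were higher and ZNF16 and ZNF174 lower, 1.6% of the 129 genes in each direction, where 1.06% of all probe sets were higher and 0.273% lower. The median difference was -0.06. In H epi against N epi, 1 gene, ZNF331, was lower and 0 were higher by limma, where 1.13% of all probe sets were lower and 0.381% higher, and 26 of the 129 genes (20.2%) had an unadjusted p under 0.05, as had 16.5% of all probe sets. The median difference was -0.19.

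The count under epirubicin rested on the N epi arrays. N epi replicate 2 was above replicate 1 in 101 of the 129 genes, and by over 1 log2 unit in 33. The median absolute difference between the 2 arrays was 0.45 in N epi and 0.14 to 0.24 in the other conditions. Without N epi replicate 1, 38 genes (29.5%) were lower in H epi than in N epi, with 10.7% of all probe sets lower in that fit. Without H epi replicate 1, 9 genes (6.98%) were, with 4.67% of all probe sets, and without either of the replicates 2, 0 genes were.

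ZNF395, a hypoxia-responsive factor, was in the list of genes that the study selected on these samples, so its direction is not independent evidence. Without drug, the log2 signals of its 2 normoxic arrays were 9.59 and 9.53 and those of its hypoxic arrays 11.26 and 11.11. Under paclitaxel they were 8.72 and 8.69 in normoxia and 10.36 and 10.42 in hypoxia, and under epirubicin 9.27 and 9.28 in normoxia and 9.49 and 9.25 in hypoxia. The hypoxia arrays were higher without drug and with paclitaxel, and overlapped the normoxia arrays with epirubicin. With paclitaxel the hypoxia difference was 1.68 ± 0.11 (adjusted p = 0.000291). With epirubicin it was 0.1 ± 0.11 and did not pass (adjusted p = 0.745). The difference between the 2 was 1.58 ± 0.16 (limma, adjusted p = 0.00446). The second ZNF395 probe set had a difference of 0.54 with paclitaxel, with an adjusted p of 0.342.

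ZNF84 had log2 signals of 6.71 and 6.35 in N tax and 7.76 and 7.71 in H tax, a difference of 1.21 ± 0.21 (limma, adjusted p = 0.0369). In N it was 6.77 and 6.70 and in H 7.96 and 7.85. With epirubicin it was 6.32 and 6.67 in normoxia and 6.23 and 5.65 in hypoxia, and the difference between the hypoxia effects was 1.77 ± 0.3 (adjusted p = 0.0449). Its second probe set had a hypoxia difference of 0.28 with paclitaxel (adjusted p = 0.765), and that probe set would be the chosen one by the mean over the 12 arrays. Without any 1 of the N, H, N tax or H tax arrays neither call held, nor did either with a replicate block (adjusted p = 0.0515 and 0.0627).

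Of the 129 genes, 2 had a larger hypoxia difference with paclitaxel than with epirubicin and 0 a smaller one, where 0.654% and 0.166% of all probe sets did, and 19 genes (14.7%) had an unadjusted p under 0.05, as had 14.1% of all probe sets. Without N epi replicate 1 the first count was 30 (23.3%, against 8.09% of all probe sets in that fit), and without H epi replicate 1 it was 9 (6.98% against 1.88%).

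ZNF16 was lower in H tax than in N tax, with log2 signals of 5.02 and 4.85 against 5.84 and 6.22 (difference -1.1 ± 0.15, limma, adjusted p = 0.0113). On all 4 epirubicin arrays it was at 2.87, under the threshold. ZNF174, a SCAN-domain gene, was lower by 0.69 (adjusted p = 0.0486), a call that ended in 19 of the alternatives tried. ZNF331, an imprinted gene, had signals of 4.74 and 4.84 on the N epi arrays and of 3.89 and 3.62 on the H epi arrays, a difference of -1.03 ± 0.13 (limma, adjusted p = 0.0183). On the arrays without epirubicin it lay between 6.27 and 7.14. The ZNF16 and ZNF331 calls ended without replicate 2 of either of their conditions, and when the arrays titled as replicate 3 were added by title (differences of -0.59 and -0.66).

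**Figure D5:**
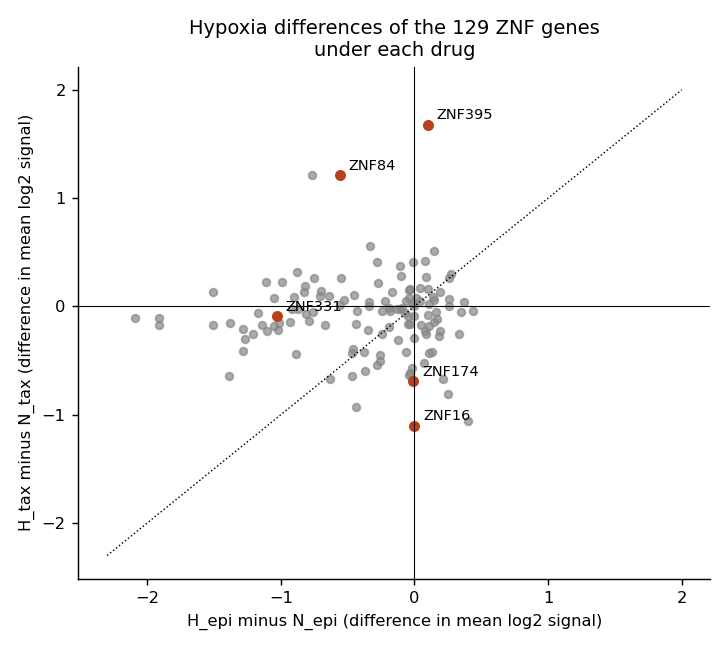
Hypoxia differences in mean log2 signal of the 129 ZNF genes with epirubicin (H epi minus N epi, horizontal) and with paclitaxel (H tax minus N tax, vertical). Each point is a gene, the dotted line marks equal differences, and named points passed the test on one of the axes. ZNF395 and ZNF84 stand highest on the vertical axis among the named genes, at 1.68 and 1.21.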

How the data were processed

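RNA from MDA-MB-231 cells had been hybridized to 18 Affymetrix HG-U133 Plus arrays. Normalization by the authors was by GC-RMA (the submitters' notes name GCRMA, with no version), and the deposited values are log2 signals per probe set. GC-RMA gives low signals a floor, so falls near it are understated. The authors' methods name chip definitions from AffyProbeMiner, but the deposited rows carry standard Affymetrix names. No genome build was given in the sources used here.

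Of 54613 probe sets without controls, 41091 had 1 symbol in the platform's gene table, 1801 had more than 1 and stayed without a name, and 11721 had no entry. All 129 symbols matched the RefSeq gene table, used for chromosome and gene order. The members and lists were chosen with earlier results of these data known. The 12 arrays with agreeing labels were fitted in 1 model with limma 3.58.1 (R 4.3.3), with 1 term per condition, over the 24151 probe sets at or above 8.84 (linear) on both arrays of at least 1 condition. All p-values were two-sided and adjusted by the Benjamini-Hochberg method over these probe sets (threshold 0.05), with 6 residual and 2.28 prior degrees of freedom. Each SE and p-value therefore uses the spread within all conditions, also those outside the comparison. The code was tested on simulated data. A fold against a condition with both arrays under the threshold is a lower bound computed at the threshold. The number of arrays limits the precision. Comparisons against N were described only. Figures were drawn with matplotlib 3.10.9 (Python 3.11.15).

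The genes named were the 5 largest rises and falls per comparison among those that passed without overlap of the arrays, together with members of known role and counts of 5 or fewer. ZNF347, ZNF12, the genes of the chromosome 19 cluster and the genes named from the reference lists were named after their values were seen. Alternatives were the third arrays by either label, the replicate number as a block, the filter, the normalization, the variance model, the arrays in the fit, single arrays left out, and other probe sets.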

Additional observations from a re-analysis of the deposited data

Results flagged for a closer look

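The hypoxia difference of 2 genes was larger with paclitaxel than with epirubicin by a test of the difference itself (limma, 2 arrays a condition). For ZNF395 the difference between the effects was 1.58 log2 units (adjusted p = 0.00446), with both H tax arrays above both N tax arrays and no such separation under epirubicin. For ZNF84 it was 1.77 log2 units (adjusted p = 0.0449), a call that ended in 16 of the alternatives tried, among them the replicate block (adjusted p = 0.0627) and the second probe set. The ZNF395 call ended in 3.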

How the results depend on the processing

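Counts are of ZNF genes past the test. With the third arrays added by source name all counts were 0, and ZNF202 (-0.17), ZNF277 (-0.25) and ZNF350 (-0.15) turned negative in H tax against H. With them added by title, 7 were lower in H tax against N tax, 5 lower in H epi against N epi and 1 lower in the difference of hypoxia effects. The shares of all probe sets in that fit are not given here. Replicate numbers did not pair the arrays (correlations of their deviations from -0.18 to 0.30 over 15 pairs of conditions, 3 over 0.1), and a replicate block gave 6 higher and 91 lower in H epi against H, 1 higher and 1 lower in H tax against N tax and 1 higher in the difference of hypoxia effects. Median centring moved the median of all probe sets by 0.54 in H epi against H and 0.36 in N epi against N tax. It gave 20 higher and 80 lower ZNF genes in the first (53% and 23.2% of all probe sets) and 10 and 91 in the second (44.3% and 23.9%), 1 lower in H tax against N tax, 2 lower in H epi against N epi, and ZNF326 at 0.50 in H epi against H. Quantile normalization gave 14 higher and 81 lower in H epi against H (41.6% and 27.7%), 8 and 91 in N epi against N tax (37.4% and 27.9%), 1 lower in H tax against N tax, and 1 higher and 4 lower in H epi against N epi. All 80 and 81 were among the 91. Without the presence filter 8 were higher in H tax against H, 1 higher and 1 lower in H tax against N tax and 1 higher in the difference of hypoxia effects. With the threshold doubled 1 was lower in H tax against N tax. The shares of all probe sets in the fits with another filter are not given here. Trended and robust variances gave 1 lower in H tax against N tax and 2 lower in H epi against N epi. With only the conditions of a comparison in the fit, and so fewer arrays, 3 were higher in N epi against N tax and 0 passed in either hypoxia comparison or in the difference of hypoxia effects. Through the second probe set of 53 genes, 34 were lower in H epi against H, 6 higher and 2 lower in H tax against H, 3 higher and 34 lower in N epi against N tax, 0 higher and 1 lower in H tax against N tax, 2 lower in H epi against N epi and 0 in the difference. ZNF226 (-3.9 and -4.2), ZNF91 (-1.96 and -1.54) and ZNF330 (0.78 and 0.58) then turned in H epi against H and N epi against N tax, and ZNF346 in H tax against H (0.77) and H epi against N epi (-1.43). With probe sets chosen by the mean over 12 arrays, 1 was higher in H tax against N tax and 1 in the difference. Leaving out each array in turn gave 4 to 6 higher and 81 to 93 lower in H epi against H, 5 to 6 and 90 to 96 in N epi against N tax, 8 to 32 higher and 2 to 9 lower in H tax against H, 1 to 3 higher and 0 to 2 lower in H tax against N tax, 0 to 2 higher and 0 to 38 lower in H epi against N epi, and 1 to 30 higher and 0 to 1 lower in the difference. The causes were not tested. Genes near the floor of their probe set have no measured order.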

Other observations

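The 6 arrays titled as replicate 3 entered no comparison, and their values are given by both labels. The array titled N, with a source name for epirubicin in normoxia, had a median log2 signal of 6.32 over the 129 ZNF genes and 8.44 for ZNF264. The array titled H, with a source name for epirubicin in hypoxia, had 6.0 and 8.75. The array titled N tax, with a source name for untreated normoxia, had 6.90 and 8.90, and that titled H tax, with a source name for untreated hypoxia, had 6.73 and 8.76. The array titled N epi, with a source name for paclitaxel in normoxia, had 4.49 and 2.67, and that titled H epi, with a source name for paclitaxel in hypoxia, had 4.32 and 2.76. The last 2 had 101 and 100 of the 129 genes above the presence threshold, and the other 4 had 128 or 129.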
